A study of Drosophila melanogaster with 16 samples.

Results

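The members described here were the minor arms of miRNA hairpins in whole adult *Drosophila melanogaster*. A hairpin qualified when both its 5p and its 3p arm were listed under one name in the counts of 19 to 25 nt reads, and the arm with fewer reads summed over 16 libraries was its minor arm. The members were thus chosen by their summed counts, and that the sum of a minor arm is below that of its partner is no result. Of 209 listed miRNAs with 144 names, 65 hairpins had both arms and 79 names had a single arm. The study's methods drop miR* strands of low counts, so a single listed arm does not mean that its partner was absent from the flies. The minor arm was the 5p arm of 30 hairpins and the 3p arm of 35. The labels give 8 conditions with 2 replicate libraries each, which were wildtype (wDah) and dFOXO-null males and females, young (5 days in replicate 1, 6 days in replicate 2) or old (31 days). dFOXO-null flies carried foxo delta94, a deletion left behind by a mobilised P element, in the wDah background that both genotypes share. wDah flies are outbred Dahomey flies with the white1118 allele. Each library pooled the small RNA of 40 whole flies, so tissues were mixed. Young and old flies of one genotype and replicate number were brothers and sisters, and males and females were housed together. P-values measure the spread between these libraries, part of which may be technical.

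A miRNA gene is transcribed as a longer RNA that folds into a hairpin. The nucleases Drosha and Dicer-1 cut out a duplex of both arms, after which an Argonaute protein keeps one strand as the guide and the other, the passenger or miR* strand, is usually degraded. The minor arm is the strand that is found less often. dFOXO is the single fly member of the FOXO family of transcription factors, which act downstream of insulin signaling and stress.

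The libraries held 596871 to 15259153 mapped reads without spike-ins. Of the 65 minor arms 57 had at least 1 read in every library. The 4 old libraries of replicate 2 stood apart from the rest. They held 596871 to 1428060 mapped reads, and their spike-in reads were 475 to 1504 RPM (reads per 1000000 mapped reads) beside 17.5 to 242 in the other 12. The differences between replicate 2 and replicate 1 in the log2 ratio of minor to major arm, over 64 hairpins, correlated (Pearson's r across hairpins, a description only) at 0.549 to 0.797 between the 4 old conditions, at 0.178 to 0.545 between the 4 young conditions and at 0.0725 to 0.413 across ages. miR-276a had 0.286 to 1.45 minor-arm reads per 100 of its major arm in these 4 libraries and 0.0266 to 0.104 in the other 12. The main results are therefore also given without them, a choice made after seeing the data. Ovary markers (miR-318-3p, miR-989-3p and miR-994-5p, summed) were at 106 to 1543 RPM in males and 12710 to 47670 in females. The 9 listed testis markers summed to 353 to 822 RPM in males and 24.0 to 120 in females, and the 5 early embryo markers to 68.8 to 179 in males and 395 to 4500 in females. Both muscle markers summed to 83390 to 217700 RPM in young and 13020 to 111700 in old libraries, and the neuron marker miR-124-3p was at 33.4 to 89.2 in young and 12.7 to 440 in old ones. No marker was at 0 in all libraries of a group. The sexes did not overlap for the ovary, testis and embryo lists, and the ages overlapped for muscle and neurons, whose markers were present in every library of these whole flies.

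The arm ratio is given here as reads of the minor arm per 100 reads of the major arm of the same library, so it does not depend on library size. It spanned from nearly no reads of the minor arm to an even split. In the summed counts 17 hairpins had under 1 minor-arm read per 100, 22 had 1 to 10, 18 had 10 to 50 and 8 had at least 50, with a median of 5.92 over the 65. The median was 5.37 where the minor arm was the 5p arm and 7.92 where it was the 3p arm. The minor arms held 1231122 reads, or 1.17% to 2.90% of the miRNA reads of a library, and miR-10-5p alone made up 42.7% of them. miR-276a-5p and miR-276b-5p had the same count in every library, so they were counted once in these totals and cannot be told apart.

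**Figure D1:**
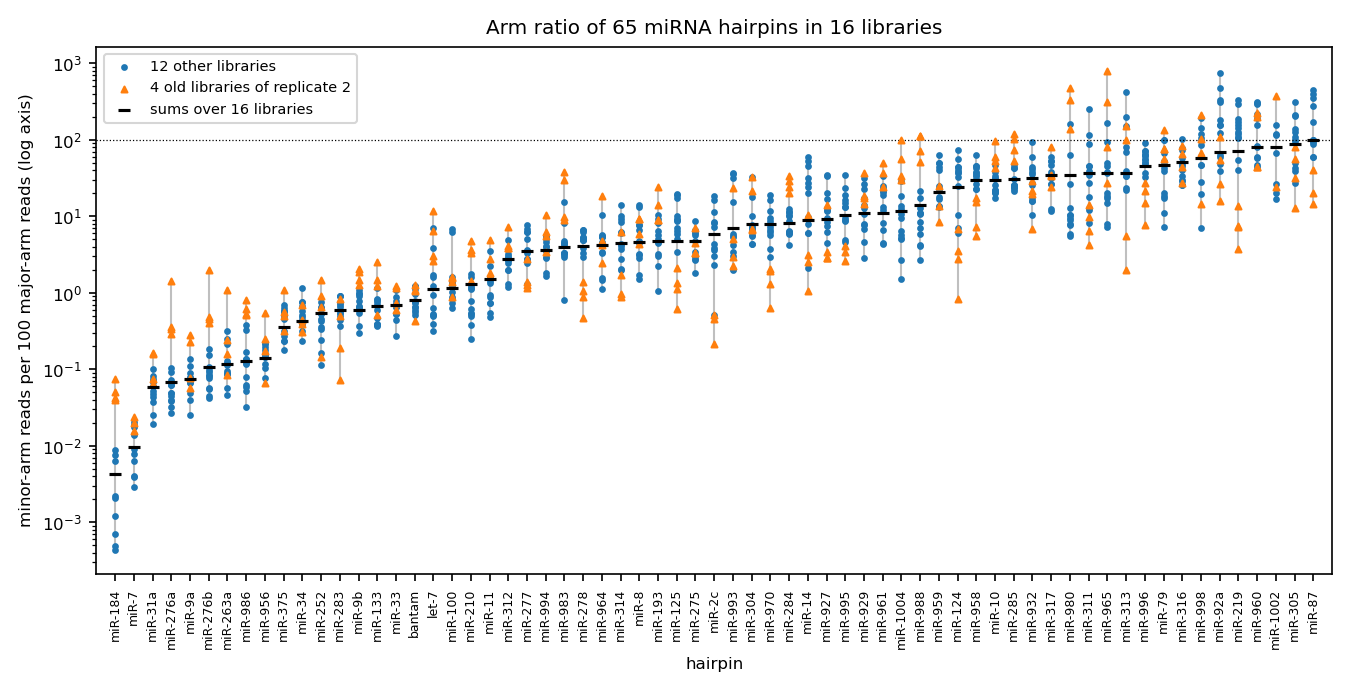
Minor-arm reads per 100 major-arm reads of each of 65 hairpins (x axis, ordered by the ratio of summed counts), on a log axis. Points are libraries, triangles are the 4 old libraries of replicate 2, the short black lines are the ratios of the sums, the dotted line marks equal counts of both arms and libraries in which one of the arms had no read are not drawn. Over the 55 hairpins with reads of both arms in every library the highest point is 12.8 times the lowest at the median, and hairpins near the right edge cross the dotted line.

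Hairpins at the low end gave almost nothing from the second arm. miR-184-5p had 78 reads beside 1835461 of miR-184-3p, a ratio of 0.00425 per 100, and was the only member that did not reach a mean of 5 counts. miR-7-3p had 119 reads (0.00962 per 100), miR-31a-3p 403 (0.0589), miR-276a-5p 11323 (0.0678) and miR-9a-3p 1029 (0.0746). Their major arms were abundant, with 16695438 reads for miR-276a-3p. The ratios of miR-184 were 0 in 3 libraries and at most 0.0757, and those of miR-7 were at most 0.0239.

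At the other end the choice of a minor arm was close to arbitrary. miR-87 was the hairpin just inside the rule, with 180 reads of miR-87-3p and 181 of miR-87-5p (99.5 per 100). It was followed by miR-305 (88.9), miR-1002 (81.3), miR-960 (81.1) and miR-219 (70.8). In 16 of the 65 hairpins the arm with fewer summed reads was ahead in at least 1 library. miR-219-3p exceeded miR-219-5p in 10 of 16 libraries, miR-92a-5p exceeded its partner in 9, miR-960-5p in 8, and miR-305-3p and miR-998-5p in 6 each. miR-87 and miR-1002 rest on few reads, since miR-1002 had no read of the major arm in 4 libraries and none of the minor arm in 6.

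The minor arms with the most reads were led by miR-10-5p. It came from a hairpin on chromosome arm 3R, positions 6809506 to 6809582 of the dm6 assembly, and had 525082 reads and a ratio of 17.4 to 96.8 per 100 (median 31.5). miR-8-5p, of a hairpin with a known role in growth, had 156523 reads (1.53 to 14.1, median 5.33). miR-305-3p had 130412 (12.8 to 314, median 88.4). The other 7 were miR-14-5p (80494 reads), miR-317-5p (59845), miR-277-5p (56567), bantam-5p (52174), miR-278-5p (34252), miR-994-3p (15117) and miR-958-5p (12722). These 10 arms held 91.2% of all minor-arm reads. bantam, a miRNA that promotes growth and blocks cell death, had the narrowest range of the 55 hairpins with reads of both arms in every library, at 0.432 to 1.28 per 100. Over those 55 hairpins the highest ratio was 12.8 times the lowest at the median, and 2.97 to 109 times across hairpins.

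Hairpins cut from the same stretch of the genome had unlike arm ratios in some clusters and like ones in others. All 65 were matched to the BDGP6 annotation of the dm6 assembly, and 21 lay within 10000 bases of another member on the same strand, in 8 clusters. miR-275 and miR-305, neighbours on arm 2L at positions 7425795 to 7425892 and 7425972 to 7426044, had 4.83 and 88.9 minor-arm reads per 100. In the E2f1 intron on arm 3R, miR-11 (21622497 to 21622571) had 1.5 and miR-998 (21621879 to 21622021) 57.7. In the cluster on 3R, miR-34 had 0.423, miR-277 3.50 and miR-317 34.6. On arm 2L, miR-959, miR-960, miR-961 and miR-964 had 20.6, 81.1, 11.2 and 4.22. miR-100, let-7 and miR-125, all in exons of the long noncoding RNA let7C, had 1.16, 1.13 and 4.74, so the first pair lay close together. On arm 2R miR-311 (36.6) and miR-313 (37.2) were also close, while miR-312 between them had 2.78. miR-79 and miR-9b, in an intron of grp, had 46.6 and 0.601, and miR-304 and miR-283, in an intron of Gmap, had 7.92 and 0.594. The annotated minor arm was longer than the major arm in 20 hairpins, shorter in 23 and equal in 22, with a median of 22 nt for both.

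The share of 21 nt reads differed between the arms of many hairpins listed at that length. The same flies' reads of exactly 21 nt were counted in a table of their own, in which both arms of 37 hairpins were listed. The 21 nt reads were a larger share of the minor arm than of the major arm in 25 of them and a smaller share in 12, with medians of 25.6% for the minor and 21.7% for the major arms. In 5 hairpins the minor arm had more 21 nt reads than the major arm, which were miR-10, miR-284, miR-305, miR-92a and miR-996. miR-10-5p had 81670 reads of 21 nt and miR-10-3p 36864, as 15.6% of the first and 2.12% of the second were of that length. Its 21 nt ratio was 95.1 to 593 per 100, and the 5p arm was ahead in 15 of 16 libraries. miR-284-3p had 1216 reads of 21 nt beside 288 of miR-284-5p and was ahead in all 16. In the opposite direction, 1.04% of miR-34-3p reads but 57.4% of miR-34-5p reads were of 21 nt, and 18% of miR-11-5p but 87.8% of miR-11-3p. Arms missing from this table (23 minor and 8 major) were left out, and these shares are given without a test. As miR* strands of low counts were dropped, a minor arm of few reads is listed more readily when its 21 nt share is high. The split of 25 and 12 and both medians thus describe the listed hairpins only and may overstate the share of minor arms.

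**Figure D2:**
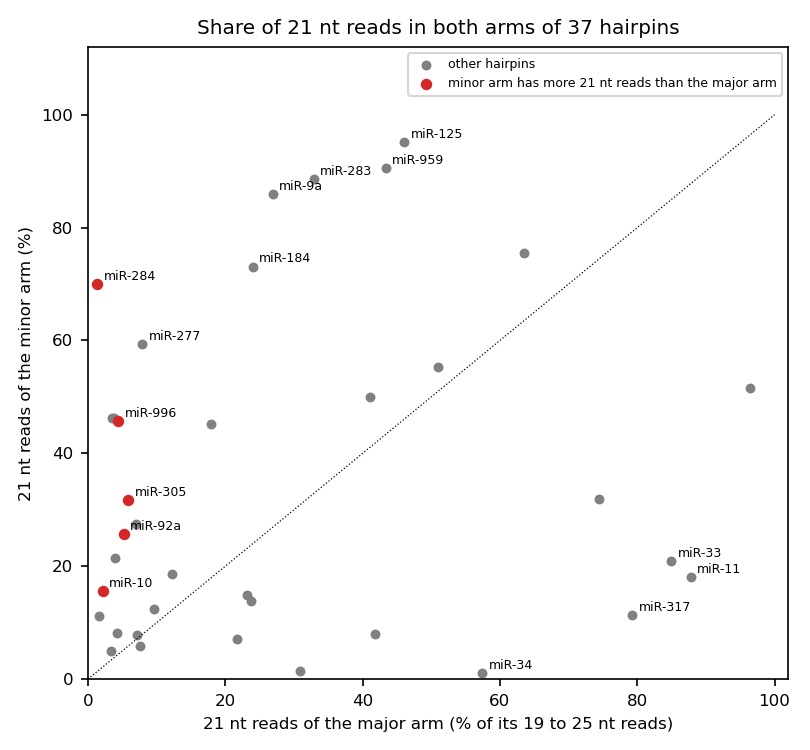
Share of 21 nt reads among the 19 to 25 nt reads of the major arm (x axis, %) and of the minor arm (y axis, %) for 37 hairpins, each 1 point of reads summed over 16 libraries. Points above the dotted line have a larger 21 nt share in the minor arm, and the 5 red points are hairpins whose minor arm outnumbered the major arm at 21 nt.

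The first comparison was between males and females, over both ages and genotypes. The ratio of the arms was tested with edgeR's quasi-likelihood test in a fit in which every library has its own coefficient and P-values are adjusted by Benjamini-Hochberg over the 64 hairpins with a minor-arm mean of at least 5, that is over every hairpin tested. The ratio differed in 4 hairpins, which is 6.25% of those tested, and was lower in males in all 4. They were miR-960, miR-993, let-7 and miR-304, and the median log2 change over all 64 was -0.07.

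miR-960 belongs to a cluster on arm 2L (5641063 to 5641155) whose miRNAs are known to cycle with the circadian clock in fly heads. Its ratio was 43.9 to 82.7 per 100 in the 8 male libraries (median 52.8) and 158 to 316 in the 8 female libraries (median 219). No male library reached any female library, so the 3p arm led in every male library and the 5p arm in every female library. By condition the ratio was 70.7 ± 17.0 (SD, n = 2) in young wildtype males, 52.1 ± 11.6 in old ones, 177 ± 25.9 in young wildtype females and 208 ± 10.9 in old ones. In dFOXO-null flies it was 62.2 ± 25.9 and 45.4 ± 2.12 in young and old males, beside 311 ± 7.40 and 259 ± 52.2 in females. The log2 change of the ratio was -2.06 ± 0.35 (SE, adjusted p = 0.00395, edgeR). Relative to mapped reads both arms were more abundant in males, miR-960-3p by 3.85 ± 0.31 on the log2 scale (adjusted p = 2.93e-07) and miR-960-5p by 1.78 ± 0.26 (adjusted p = 7.05e-05). Female libraries held only 2 to 53 reads of miR-960-3p each. Among 21 nt reads alone the change of the ratio was -0.29 (adjusted p = 0.765).

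miR-993 (3R, 6776333 to 6776451) had a ratio of 2.01 to 5.47 in males (median 3.0) and 3.39 to 36.5 in females (median 19.3). The ranges overlapped, since replicate 2 of young and of old wildtype females lay at 3.39 and 5.01. Old wildtype female replicate 1, at 5.93, was just above the highest male library. The change was -2.14 ± 0.49 (adjusted p = 0.0253). miR-993-3p was higher in males by 1.69 ± 0.29 (adjusted p = 0.000291), while miR-993-5p differed by -0.44 ± 0.35 (adjusted p = 0.335).

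let-7, a regulator of developmental timing, had 0.321 to 3.03 reads of let-7-3p per 100 of let-7-5p in males (median 0.783) and 0.512 to 11.8 in females (median 2.72). The change was -1.39 ± 0.38 (adjusted p = 0.0448). The major arm let-7-5p was higher in males by 1.67 ± 0.28 (adjusted p = 0.000223) and let-7-3p differed by 0.27 ± 0.30 (adjusted p = 0.494). miR-304 (X, 15508959 to 15509046, in an intron of Gmap) had 4.34 to 6.94 per 100 in males (median 6.11) and 6.83 to 32.9 in females (median 13.9), a change of -1.28 ± 0.33 (adjusted p = 0.0448). Its highest values were in old dFOXO-null females, at 32.9 and 32.8. Both male libraries lay below both female ones in each of the 4 combinations of age and genotype for miR-304 and miR-960, and in 3 for miR-993 and let-7. Separation of the sexes in 3 combinations was seen for more hairpins that did not pass than for called ones. Those that did not pass were miR-7, miR-9a, miR-92a, miR-263a, miR-305, miR-927, miR-932, miR-965 and miR-1002. Without the 4 old libraries of replicate 2 the change of miR-304 was -1.12 (adjusted p = 0.103), and the other 3 hairpins stayed under 0.05 (adjusted p = 0.0160 to 0.0352). With single libraries left out in turn, miR-960 passed in 16 of 16 fits (adjusted p of at most 0.0188), but miR-993 in 11 (at most 0.0798), let-7 in 6 (at most 0.136) and miR-304 in 4 (at most 0.136), with the direction kept. miR-993 did not pass without young replicate 1, young replicate 2 or old replicate 1 of dFOXO-null males, or without young replicate 2 or old replicate 1 of wildtype males. let-7 passed only without replicate 1 of any of the 4 female conditions or without replicate 2 of old males of either genotype. miR-304 passed only without replicate 1 of old females of either genotype, replicate 1 of young dFOXO-null females or replicate 2 of old wildtype males. In the 8 wildtype libraries alone none of the 64 ratios differed between the sexes by edgeR, and 3 had an unadjusted p under 0.05. The ovary, testis and embryo markers differed between the same groups, and their part in these ratios was not tested.

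**Figure D3:**
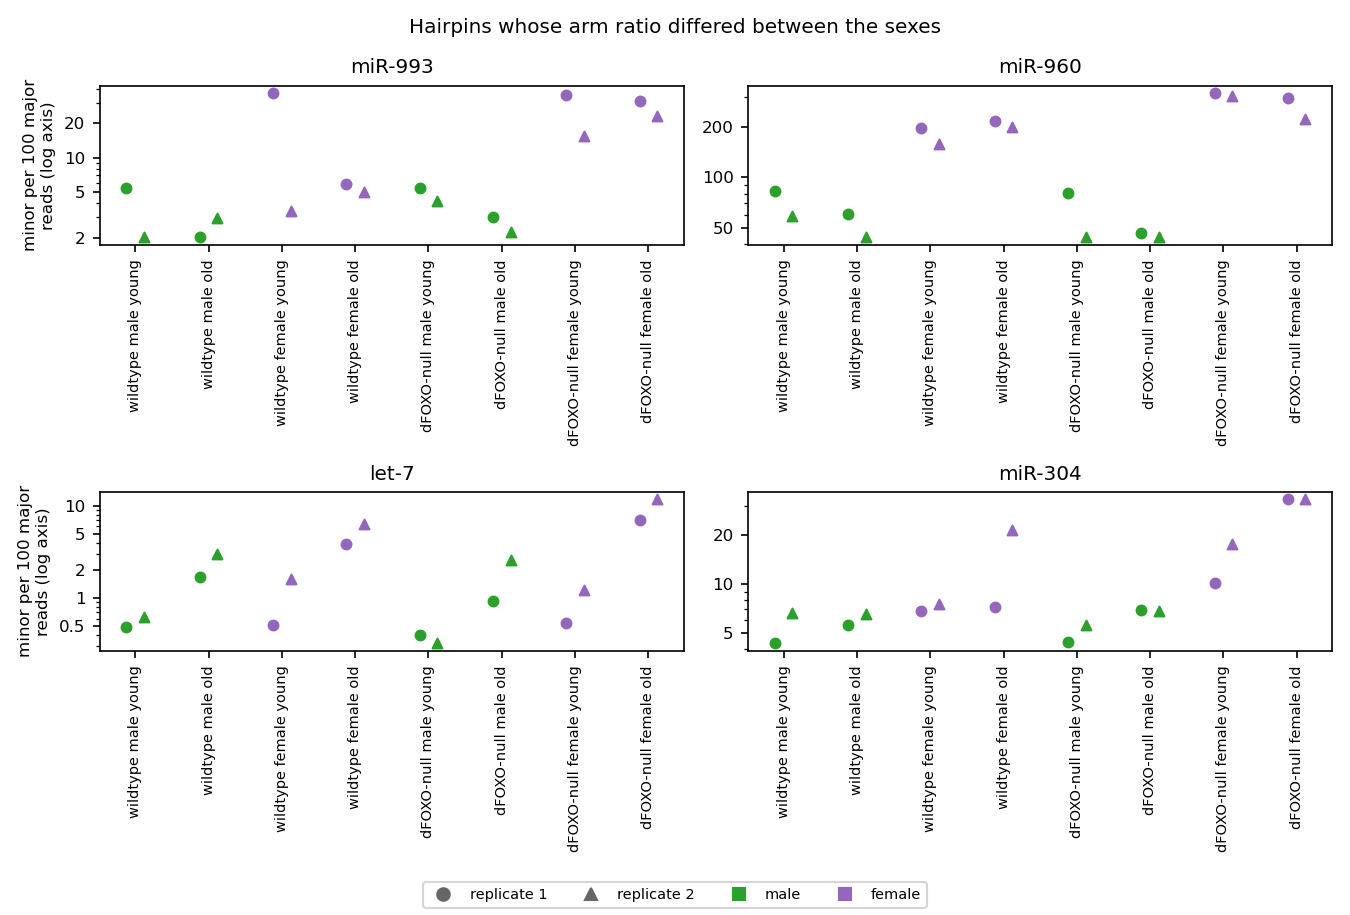
Minor-arm reads per 100 major-arm reads (log axis) in each of the 16 libraries for the 4 hairpins whose ratio differed between the sexes, by condition. Circles are replicate 1, triangles replicate 2, green males and purple females. The male libraries of miR-960 lie at 43.9 to 82.7, all below the female libraries at 158 to 316, and the other panels overlap.

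The counts of the arms were tested separately. Relative to mapped reads, 21 of 64 minor arms differed between the sexes (32.8%), 10 higher and 11 lower in males (15 and 11 without the 4 old libraries of replicate 2), beside 27 of 65 major arms and 38 of 79 miRNAs with a single listed arm. Over all 208 miRNAs tested 41.3% differed, with 20.7% higher and 20.7% lower. The median log2 change was 0.02 for the minor arms and 0.16 for all miRNAs. In whole flies fewer cells of a type and less of a miRNA per cell cannot be told apart.

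Among minor arms lower in males the largest change was of miR-994-3p. It was at 0.304 to 11.7 RPM in males (median 1.57) and 109 to 669 in females (median 361), a log2 change of -7.26 ± 0.57 (adjusted p = 2.93e-07). Its major arm miR-994-5p, an ovary marker in the list above, changed by -7.22 ± 0.60, and the ratio by -0.02 ± 0.20. The neighbours miR-311, miR-312 and miR-313 on arm 2R (20583877 to 20584260) were lower as well. miR-313-3p was at 0 to 5.03 in males and 2.80 to 12 in females (-3.83 ± 0.62), miR-312-5p at 1.83 to 10.1 and 6.23 to 86.8 (-3.25 ± 0.57) and miR-311-5p at 6.36 to 25.5 and 31.5 to 185 (-2.88 ± 0.34). Male libraries held 0 to 6 reads of miR-313-3p each and female ones 4 to 108. This arm met the count filters only through females, and the size of its change is uncertain. Reads per male library were also few for miR-994-3p (1 to 27), miR-995-5p (0 to 37) and miR-312-5p (6 to 37). These arms reached the mean of 20 reads set for named arms only through females, so the sizes of their changes are uncertain too. miR-995-5p (-2.58 ± 0.46) and miR-92a-5p (-2.13 ± 0.52) were also lower in males. All 6 had negative values with TMM and DESeq2 scaling too, where miR-92a-5p no longer passed (adjusted p = 0.0528 and 0.0766). Without the 4 old libraries of replicate 2 all 6 stayed lower, with miR-313-3p at -5.78 ± 0.55 and the others at -7.24 to -1.66 (adjusted p of at most 0.000948). Males and females did not overlap for miR-994-3p, miR-311-5p and miR-995-5p.

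The minor arms higher in males included those of the miR-959 to miR-964 cluster. miR-959-5p was at 3.82 to 13.9 RPM in males (median 10.6) and 0 to 3.57 in females (median 1.33), a change of 2.88 ± 0.38 (adjusted p = 2.06e-05). miR-961-3p changed by 2.53 ± 0.42, miR-960-5p by 1.78 ± 0.26 and, outside the rule for named arms, miR-964-3p by 1.75 ± 0.31. These 4 minor arms came from 1 stretch of the genome and are not independent of each other. miR-959-3p and miR-961-5p, the major arms, changed by 4.01 ± 0.32 and 2.57 ± 0.45. Female libraries held only 0 to 18 reads of miR-959-5p and 2 to 21 of miR-961-3p each. Both arms reached the mean of 20 reads set for named arms only through males, so the sizes of their changes are uncertain. miR-959-5p and miR-961-3p stayed higher with TMM (3.98 and 3.65), DESeq2 (4.09 and 3.80), and without the 4 old libraries of replicate 2 (2.88 and 2.72), and did not pass with spike-in scaling (adjusted p = 0.131 and 0.219). The split of calls depended on the scaling. It was 10 higher and 11 lower with mapped reads, 46 and 6 with TMM, 51 and 6 with DESeq2, and 0 and 10 with spike-in scaling. The median of all miRNAs lay at 0.16, 1.38, 1.5 and -0.65 under these 4.

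The second comparison was between old and young flies, over both sexes and genotypes. The ratio of the arms differed in 8 of 64 hairpins (12.5%) by the same test, higher in old flies in 3 and lower in 5. let-7, miR-11 and miR-193 were higher, and miR-2c, miR-219, miR-14, miR-927 and miR-277 were lower. The median change over the 64 was 0.32. Of the 8, let-7 alone stayed under an adjusted p of 0.05 without the 4 old libraries of replicate 2.

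The let-7 ratio rose in each combination of sex and genotype, with both old libraries above both young ones in all 4. It was 0.321 to 1.60 per 100 in the 8 young libraries (median 0.524) and 0.940 to 11.8 in the 8 old ones (median 3.44), so the ranges overlapped across sexes. In wildtype males it went from 0.559 ± 0.0952 (SD, n = 2) to 2.37 ± 0.943, and in wildtype females from 1.05 ± 0.768 to 5.11 ± 1.79. In dFOXO-null males it went from 0.358 ± 0.0513 to 1.77 ± 1.2, and in dFOXO-null females from 0.881 ± 0.487 to 9.43 ± 3.38. The log2 change was 2.52 ± 0.38 (adjusted p = 0.00116), and it was 2.05 (adjusted p = 0.0121) without the 4 old libraries of replicate 2. Relative to mapped reads let-7-3p rose by 1.92 ± 0.31 (adjusted p = 0.00207), while let-7-5p changed by -0.59 ± 0.28 (adjusted p = 0.121). Its cluster neighbours did not share the change. The miR-100 ratio changed by -0.44 ± 0.47 (adjusted p = 0.480) and the miR-125 ratio by -1.85 ± 0.67 (adjusted p = 0.0815), with miR-125-5p higher in old flies by 3.05 ± 0.67 (adjusted p = 0.0129). miR-125-5p was at 67.9 to 734 RPM in young libraries. In old ones it was at 190 to 1160 in replicate 1 and 1317 to 5226 in replicate 2.

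miR-219 (3L, 17315006 to 17315105) had a lower share of its minor arm in old flies. Its ratio was 118 to 329 in young libraries (median 164) and 3.70 to 110 in old ones (median 26.9), with no overlap. The minor arm led in all 8 young libraries and in 2 of the 8 old ones, the males of replicate 1. Old libraries of replicate 1 lay at 40.0 to 110 and those of replicate 2 at 3.70 to 13.8, so the fall was larger in the latter. The log2 change was -2.81 ± 0.75 (adjusted p = 0.0349), and -1.35 (adjusted p = 0.126) without the 4 libraries. miR-219-5p, the arm with more reads in sum, was higher in old flies by 3.31 ± 0.81 (adjusted p = 0.0159), while miR-219-3p changed by -0.45 ± 0.42 (adjusted p = 0.451). miR-219-5p was at 2.19 to 6.55 RPM in young libraries. In old ones it was at 2.64 to 9.36 in replicate 1 and 45.2 to 166 in replicate 2. Each library held only 1 to 119 reads of miR-219-3p, and the old libraries alone fell short of the mean of 20 reads set for named hairpins.

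miR-14, known in flies for restraining cell death and fat storage, showed the same form with many reads. Its ratio was 7.88 to 59.7 in young libraries (median 25.4) and 1.07 to 46.1 in old ones (median 4.57), with old dFOXO-null female replicate 1 as the high value. The change was -2.27 ± 0.66 (adjusted p = 0.0349). miR-14-3p, the major arm, was higher in old flies by 2.66 ± 0.66 (adjusted p = 0.0163), and miR-14-5p changed by 0.35 ± 0.42 (adjusted p = 0.552). miR-14-3p was at 1808 to 18380 RPM in young libraries. In old ones it was at 2651 to 21670 in replicate 1 and 31870 to 116300 in replicate 2.

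In miR-2c and miR-277 the minor arm itself fell, while the major arm of miR-2c was also highest in the old libraries of replicate 2. miR-2c, of a family with targets in cell death, had 2.34 to 18.2 minor-arm reads per 100 in young libraries (median 8.29) and 0 to 4.42 in old ones (median 0.519). The ratio changed by -3.27 ± 0.80 (adjusted p = 0.0299). miR-2c-3p, the major arm, was at 106 to 271 RPM in young libraries. In old ones it was at 62.4 to 161 in replicate 1 and 588 to 1301 in replicate 2. Old libraries held only 0 to 31 reads of miR-2c-5p each. This arm reached the mean of 20 reads set for named arms only through young flies, so the size of its change is uncertain. miR-2c-5p was at 6.35 to 19.6 RPM in young and 0 to 4.03 in old libraries, with no overlap, and fell by 2.68 ± 0.38 on the log2 scale (adjusted p = 0.00117). This fall held without the 4 libraries, at -2.51 ± 0.42 (adjusted p = 0.00342), and with TMM (-3.02) and DESeq2 (-3.12) scaling. With spike-in scaling it was -5.40, but there 50 minor arms were lower, none was higher and the median of all miRNAs was -2.45. miR-277, a regulator of branched-chain amino acid breakdown in flies, had 2.80 to 7.68 per 100 in young libraries (median 5.60) and 1.15 to 3.64 in old ones (median 1.92), a change of -1.35 ± 0.33 (adjusted p = 0.0299). miR-277-5p fell by 1.23 ± 0.28 (adjusted p = 0.0129) and miR-277-3p changed by 0.19 ± 0.27 (adjusted p = 0.619). Among 21 nt reads the ratio changed by -2.95 (adjusted p = 7.85e-05).

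The other 3 hairpins were miR-927, miR-11 and miR-193. The miR-927 ratio was 8.37 to 34.3 in young libraries and 2.84 to 14.2 in old ones (-1.48 ± 0.42, adjusted p = 0.0349). The miR-11 ratio was 0.482 to 1.58 in young and 0.882 to 4.97 in old libraries (1.27 ± 0.35, adjusted p = 0.0349), and miR-11-5p rose by 1.63 ± 0.32 (adjusted p = 0.00775). miR-193-3p averaged under 20 reads a library, which is outside the rule for named hairpins, and its ratio was 1.07 to 6.40 in young and 5.69 to 24.2 in old libraries (1.58 ± 0.45, adjusted p = 0.0349). Both old libraries lay on one side of both young ones in 3 of the 4 combinations of sex and genotype for miR-2c, miR-14, miR-277, miR-927, miR-11 and miR-193, and in all 4 for miR-219. Separation in 3 combinations was not particular to called hairpins. It was seen for more hairpins that did not pass than for called ones. Those that did not pass were miR-10, miR-125, miR-252, miR-284, miR-285, miR-316, miR-31a, miR-87, miR-980, miR-988 and bantam. In bantam the remaining combination went the opposite way.

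Without the 4 old libraries of replicate 2, the 6 named hairpins beside let-7 kept their direction with smaller changes and adjusted p-values of 0.0562 to 0.146. Leaving out any single library gave 1 to 20 hairpins, and let-7 was among them each time (adjusted p of at most 0.00654). miR-277 passed in 8 of these 16 fits, miR-2c in 7, miR-219, miR-14, miR-927 and miR-11 in 5 each and miR-193 in 4, with adjusted p-values of up to 0.105 for the 6 named. With the replicate number as a block 19 ratios differed with age and 7 between the sexes. The 8 and 4 hairpins above were among them. This block spans both genotypes, while the shared parentage is within a genotype. It also takes the replicate shift as equal at both ages, and replicate deviations correlated at 0.0725 to 0.413 across ages. In the 8 wildtype libraries alone no ratio differed with age by edgeR and 7 had an unadjusted p under 0.05. Low depth and many spike-in reads came with the same 4 libraries. The neuron marker miR-124-3p was at 245 to 440 RPM in these 4 and at 12.7 to 89.8 in the other old libraries. Young libraries had 33.4 to 89.2 of it. Muscle markers ranged lower in old libraries, with overlap between the ages. The part of depth, spike-ins and markers in these results was not tested.

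**Figure D4:**
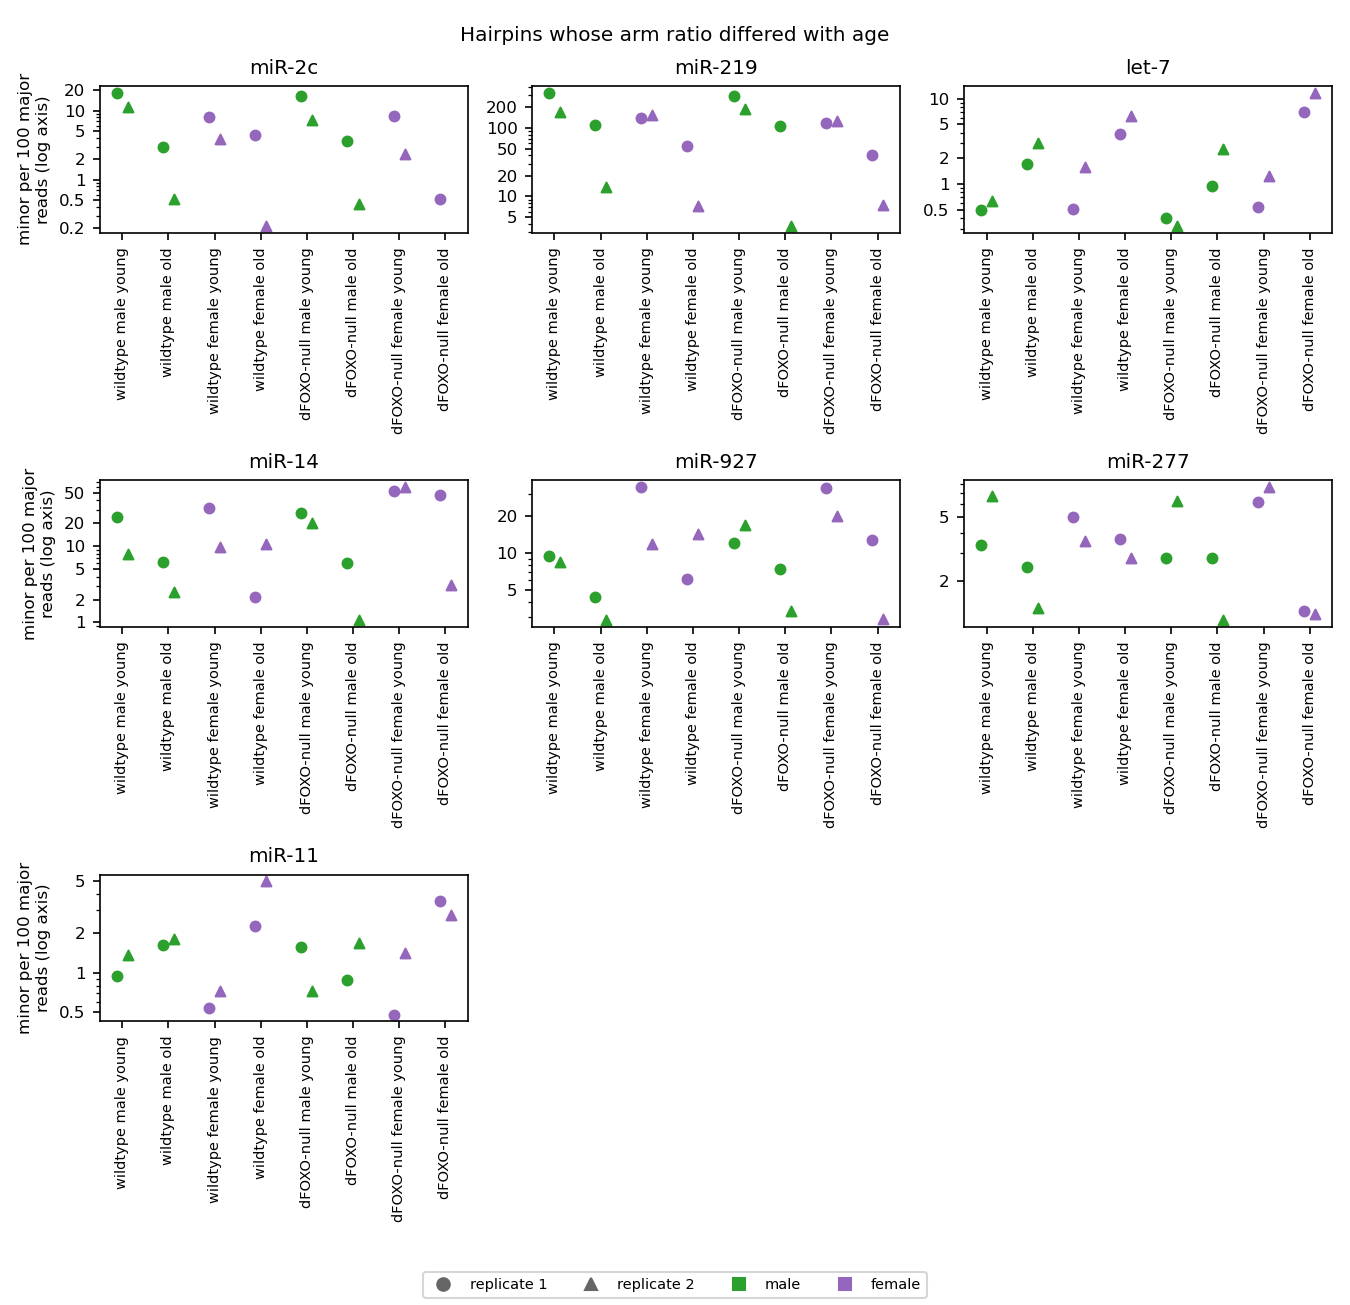
Minor-arm reads per 100 major-arm reads (log axis) in each library for the 7 named hairpins whose ratio differed with age, by condition. Circles are replicate 1, triangles replicate 2, green males and purple females, and 1 library without a miR-2c-5p read is not drawn. let-7 is higher in the old libraries of every sex and genotype, and old triangles of miR-219 lie at 3.70 to 13.8, below the old circles at 40.0 to 110.

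Relative to mapped reads, 15 of 64 minor arms differed with age (23.4%), 13 higher and 2 lower in old flies (6 and 3 without the 4 old libraries of replicate 2), beside 13 of 65 major arms and 10 of 79 single arms. Over all 208 miRNAs 18.3% differed, with 13% higher and 5.29% lower. The identical counts of miR-276a-5p and miR-276b-5p make up 2 of the 64 tested and 2 of the 13 higher. The median log2 change was 0.51 for the minor arms, 0.31 for the major arms and 0.40 for all miRNAs.

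miR-988-3p had the largest rise of the named arms, from 6.15 to 33.8 RPM in young (median 11.0) to 15.0 to 403 in old libraries (median 94.2), a change of 3.09 ± 0.70 (adjusted p = 0.0129). It was 0.99 ± 0.46 (adjusted p = 0.184) without the 4 old libraries of replicate 2. The same held for miR-929-3p (1.71 ± 0.43 with them, 0.99 ± 0.40 and adjusted p = 0.148 without) and miR-33-3p (1.52 ± 0.37, then 0.73 ± 0.31 and adjusted p = 0.158). Young libraries held 7 to 42 reads of miR-929-3p each and alone fell short of the mean of 20 reads set for named arms. For miR-276a-5p and miR-276b-5p, which share their reads, the change was 1.64 ± 0.51 (adjusted p = 0.0400) with them and -0.04 ± 0.27 (adjusted p = 0.938) without, and it did not pass with TMM (adjusted p = 0.102) or the replicate block (adjusted p = 0.0610). let-7-3p and miR-11-5p stayed higher without them, by 1.66 ± 0.30 (adjusted p = 0.00371) and 1.5 ± 0.34 (adjusted p = 0.0206).

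The direction of the counts with age depended on the scale. Scaled to spike-in reads 50 minor arms were lower in old flies and none higher, and each of the 7 named arms above that rose with mapped reads had a negative value, such as -0.78 ± 0.82 for let-7-3p. With TMM 8 were higher and 6 lower, and with DESeq2 8 and 9. The median of all miRNAs was 0.40 with mapped reads, -0.10 with TMM, -0.22 with DESeq2 and -2.45 with spike-ins, and the arm ratio is free of this choice. The replicate block gave 22 minor arms.

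**Figure D5:**
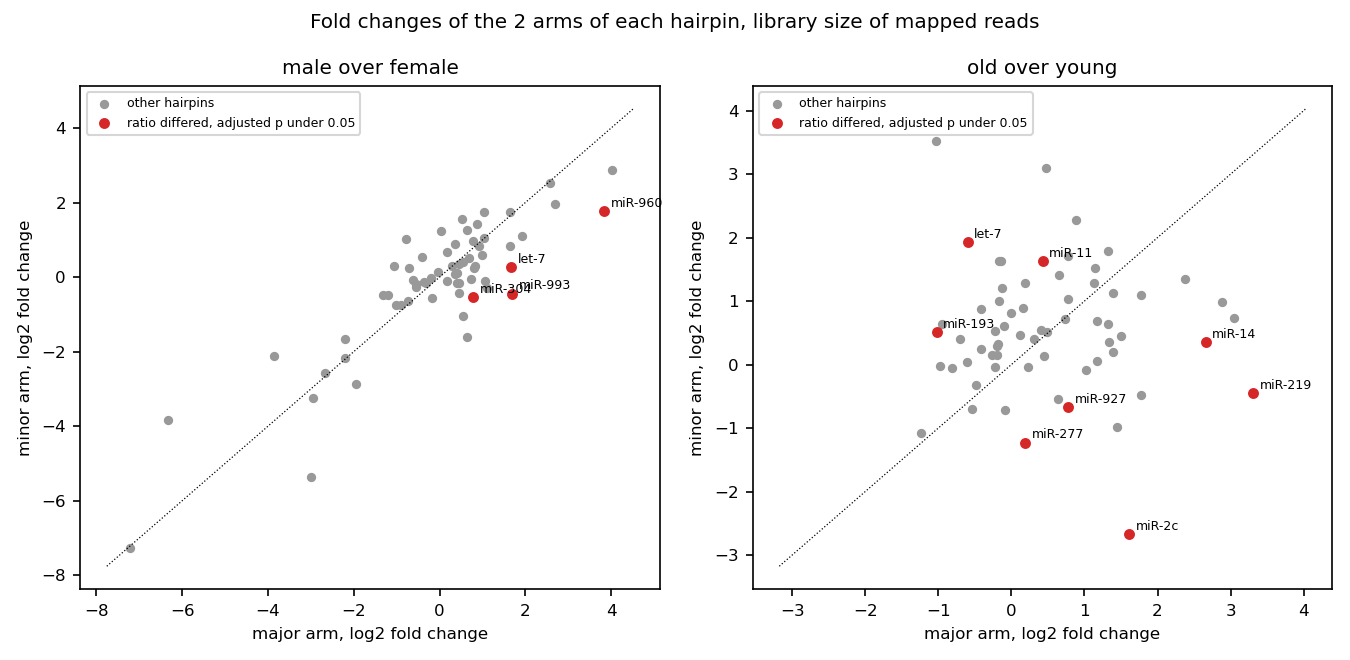
Log2 fold changes relative to mapped reads of the major arm (x axis) and the minor arm (y axis) of each hairpin, males over females on the left and old over young on the right. Red points are hairpins whose arm ratio differed, and the dotted line marks equal change of both arms. In the right panel miR-14 and miR-219 lie right of the line through their major arms, while miR-2c and miR-277 lie below it through their minor arms. Both panels include the 4 old libraries of replicate 2, in which the major arms of miR-14, miR-219 and miR-2c were highest.

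The third comparison was between dFOXO-null and wildtype flies. No arm ratio differed, 0 of 64 (0%) by edgeR, 0 by DESeq2 and 0 by limma, with 5 at an unadjusted p under 0.05 by edgeR. The median change was -0.09. For let-7 the change was -0.11 ± 0.37, for miR-960 0.18 ± 0.35 and for miR-14 0.79 ± 0.65, none of which passed (adjusted p = 0.885 to 0.926). No ratio had a sex-by-age, sex-by-genotype or age-by-genotype interaction by edgeR, DESeq2 or limma, with 1, 1 and 0 at an unadjusted p under 0.05 by edgeR. The changes with sex and age described above were thus not shown to differ between genotypes.

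In counts 1 minor arm of 64 (1.56%) differed with genotype, beside 2 of 65 major arms and 2.4% of all 208 miRNAs (1.44% higher, 0.962% lower). miR-960-5p was higher in dFOXO-null flies by 1.59 ± 0.26 on the log2 scale (adjusted p = 0.00215). In females it was at 21.4, 32.2, 15.4 and 14 RPM in dFOXO-null libraries (young replicates 1 and 2, then old) and at 4.34, 5.58, 3.36 and 3.70 in wildtype libraries. In males it was at 57.3, 52.2, 36.5 and 30.2 beside 26.4, 32.9, 20.7 and 13.7. Every dFOXO-null library was above both wildtype libraries of its sex and age. The major arm miR-960-3p rose as well, by 1.41 ± 0.29 (adjusted p = 0.0117), and the change of the ratio was the 0.18 given above. Without the 4 old libraries of replicate 2 the change of miR-960-5p was 1.59 ± 0.30 (adjusted p = 0.00939). Scaled to spike-in reads it was 1.87 ± 0.85 (adjusted p = 1.00).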

How the data were processed

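The authors trimmed adapters (Trim Galore), selected reads of 19 to 25 nt or of 21 nt, mapped them with Bowtie, reporting all valid alignments and allowing 1 mismatch, to spike-ins, transposons and miRNAs, or to dm6, and counted them with featureCounts, so near-identical arms (miR-276a and miR-276b, miR-9a and miR-9b, the miR-2 family) can share reads. The deposited counts are raw reads per feature. The deposited percents are counts over mapped reads without spike-ins, and recomputing them gave a largest relative difference of 0.00332. Versions of Trim Galore, Bowtie and featureCounts are not given in the sources used here. The authors dropped miR* strands and transposons whose mean fell under 5 reads (DEBrowser), which limits the minor arms to those above about that level (lowest listed mean 4.88, miR-184-5p). Of the 65 hairpins, 39 were in the dm6 counts, with a median of 1.12 times the sum of both arms. In 23 of these 39 the dm6 count was 0.8 to 1.25 times that sum. It was 3.32 times the sum for miR-305, 3.18 for miR-11, 1.56 for miR-960 and 1.55 for miR-219. For such hairpins the 2 listed arms hold only a part of the reads counted on the genome, and the source of the other reads was not tested.

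Counts were tested with edgeR 4.0.16 in R 4.3.3 (quasi-likelihood, 8 condition coefficients, scaled to the mapped reads of a library less its spike-ins, mean of at least 5, Benjamini-Hochberg over 208 miRNAs, threshold 0.05). For ratios, both arm counts of each library entered 1 fit with a coefficient per library and arm by condition. limma 3.58.1 and DESeq2 1.42.0 were alternatives, with TMM and spike-in scaling, other filters, a replicate block, 21 nt reads and leaving out libraries. Fits were also run on simulated data, which held no replicate shift like that of the 4 old libraries of replicate 2. No result here rests on those runs. Libraries held 596871 to 15259153 reads.

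Named were the 10 minor arms with most reads, the 5 ratios nearest to equal and the 5 lowest, and up to 8 largest changes per contrast (adjusted p under 0.05, mean of at least 20). Members, lists and tests were chosen with earlier results of these data known. The labels give young and old flies of 1 genotype and replicate as brothers and sisters, which makes the number a pairing within a genotype. Replicate deviations of log2 ratios of the same sex and genotype correlated at 0.0725 to 0.412 between ages. Positions are of the BDGP6 annotation (dm6).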

Additional observations from a re-analysis of the deposited data

How the results depend on the processing

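Counts of differing arm ratios moved with the fit, and direction did not reverse for any of the 11 named ratio changes. Between the sexes (4 hairpins) the count was 7 with limma at a pseudocount of 5, 8 with DESeq2, 7 with the replicate block and 7 with the block within genotype, 8 among hairpins with a minor-arm mean of at least 50, and 0 in wildtype libraries alone. With age (8 hairpins) it was 16 with DESeq2, 19 with the replicate block and 17 within genotype, 5 at a mean of at least 50, 0 in wildtype libraries alone and 1 without the 4 old libraries of replicate 2. All 4 and all 8 hairpins were among those of the block, and of the named count changes miR-276a-5p did not pass with it (adjusted p = 0.0610). Leaving out 1 library gave 1 to 8 hairpins for sex and 1 to 20 for age. For sex the count was 8 and 7 without old wildtype or dFOXO-null female replicate 1, 4 to 6 without 4 other libraries and 1 to 2 without the rest. The count for age stayed at 8 without young wildtype female replicate 2, was 13 to 20 without an old replicate 1 library other than wildtype male, and 1 to 5 without any other. miR-960 for sex (adjusted p of at most 0.0188) and let-7 for age kept their calls each time. Among minor-arm counts the sex calls (21) were 52 with TMM, 10 with spike-in scaling and 57 with DESeq2, and 16 to 24 with 1 library left out. The age calls (15) were 50 with spike-in scaling and 9 without the 4 libraries, and 6 to 25 with 1 library left out, with 25 without old wildtype female replicate 1 and 6 to 9 without 7 others. The genotype calls (1) were 0 with spike-in scaling and 2 with DESeq2, and 1 to 2 with 1 library left out. The cause of these shifts was not tested. With 21 nt reads miR-14 no longer passed for age (-1.12, adjusted p = 0.141). With 2 libraries per condition and minor arms of few reads, ratios below about 5 reads a library were not tested.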
